A study of Danio rerio with 6 samples.

Results

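Pan-leukocyte and myeloid transcripts were followed on 6 Affymetrix GeneChip Zebrafish arrays of sorted retinal cells. The genes were *lcp1*, *coro1a*, *ptprc*, *mpx* and *spi1b* together with any gene whose symbol starts with csf1r, mpeg1 or lyz, and they were found by symbol in the platform annotation. This gave 7 of the 8793 named genes, on 12 of the 15502 probe sets tested, with *csf1ra* and *lyz* as the matches of the csf1r and lyz families. No named probe set matched mpeg1, and the mpeg1 genes were therefore not analysed here. All cells came from adult fish of the genotype Tg(3.2TalphaCP:EGFP), which had received no treatment. In this line a promoter of cone transducin α drives EGFP in cone photoreceptors. Neural retina freed of pigment epithelium and lens was dissociated with trypsin, retinae were pooled, and single cells were sorted by EGFP fluorescence into a GFP-positive and a GFP-minus population, with 3 biological replicates of each. Both populations carry the transgene, and cone cells are given as the tissue for both, although GFP-minus cells are those sorted without EGFP.

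Blood and tissue leukocytes share a set of genes for migration and signalling. Plastin (*lcp1*) and coronin (*coro1a*) organise their actin filaments, and the phosphatase CD45 (*ptprc*) is the classical surface marker of nearly all of them. The transcription factor PU.1 (*spi1b*) directs myeloid differentiation. Myeloid cells include macrophages, which include the microglia of the retina and depend on the colony stimulating factor 1 receptor (*csf1ra*), and granulocytes, which store myeloperoxidase (*mpx*) and lysozyme (*lyz*) in granules. In zebrafish *csf1ra* is also known from yellow pigment cells and *lyz* from some macrophages, so that neither is fully exclusive.

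The deposited values are on a log2 scale after background correction and normalization with GCRMA. Background collects at a lowest value of 2.17, and some probe sets stay at a higher constant of their own. Levels of different probe sets are not comparable, because probes differ in binding, so only differences between arrays are read. Arrays have no read depth, and their number limits the precision. Pearson's correlation across probe sets was 0.977 to 0.992 within a population and 0.920 to 0.948 between populations, and no pair of arrays held identical values. The cells were checked by lists of marker genes, with linear levels summed over each list. The brightest probe sets govern such a sum, so sums are compared between arrays and not between lists or genes. Of 18 cone genes, 16 were higher in GFP-positive cells and none was lower, with summed linear levels of 125416 to 159184 in GFP-positive and 6405 to 13371 in GFP-minus samples. Over all probe sets, GFP-positive cells had 463 higher and 727 lower ones (limma, Benjamini-Hochberg adjusted p under 0.05). The higher ones made up 38.9% of those called, against 84.8% after median centring, which shifts a difference by 0.225, and 5.66% after scaling to the hybridization controls, which shifts it by -0.737.

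**Figure D1:**
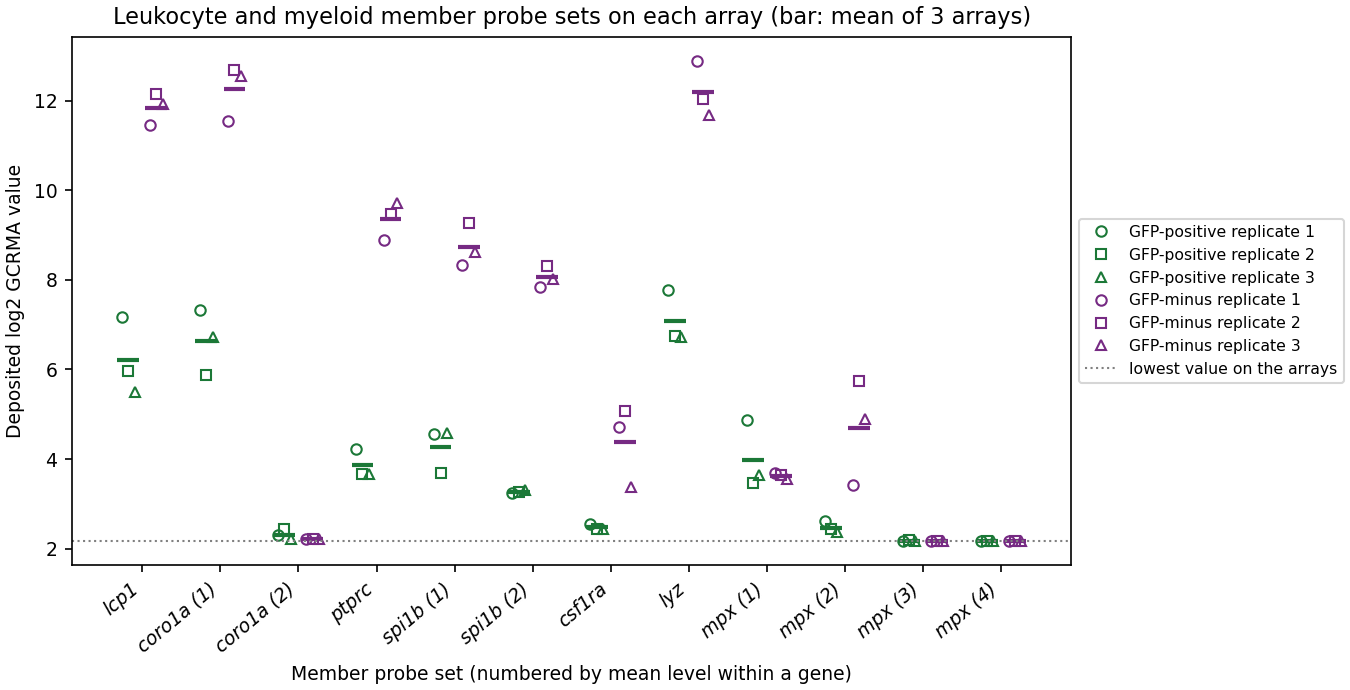
Deposited log2 value (vertical axis) of each of the 12 member probe sets on every array, GFP-positive in green and GFP-minus in purple; symbols mark the replicate number, bars the mean of 3 arrays, and the dotted line the lowest value of 2.17. The *lcp1*, *ptprc*, *spi1b* and *lyz* sets and the brighter *coro1a* set lie far lower in GFP-positive cells, whereas the *csf1ra* and *mpx* sets did not pass the test.

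The transcripts *lcp1*, *coro1a* and *ptprc*, shared by leukocytes, were lower in GFP-positive cells by more than 40-fold. Of the 12 probe sets, 6 were called lower, none was called higher and 6 did not pass the test, where 4.69% of all probe sets were called lower and 2.99% higher. The 6 called sets belong to 5 genes, and at an unadjusted p under 0.05 there were 8 lower sets and 0 higher ones, where 10.4% of all probe sets were lower and 10.7% higher at that threshold. On 8 of the 12 sets every GFP-positive array lay below every GFP-minus array, as was the case for 13% of all probe sets (2016 of 15502).
The plastin gene *lcp1* had log2 values of 7.17, 5.97 and 5.49 in GFP-positive replicates 1 to 3, against 11.46, 12.14 and 11.92 in GFP-minus replicates 1 to 3. The populations were separated by a wide gap, with GFP-positive replicate 1 the highest of its group. The difference was -5.63 on the log2 scale, a 49.5-fold lower level (standard error 0.51, limma adjusted p = 0.0106).
For *coro1a*, the brighter probe set gave 7.32, 5.87 and 6.73 in GFP-positive cells, against 11.55, 12.67 and 12.55 in GFP-minus cells. Again no arrays overlapped, and the difference of -5.62 amounted to a 49.1-fold lower level (standard error 0.52, limma adjusted p = 0.0112). The other *coro1a* set stayed between 2.21 and 2.43 on all arrays near the lowest value, with a difference of 0.10 (limma adjusted p = 0.443).
The CD45 gene *ptprc* lay at 4.22, 3.68 and 3.68 in GFP-positive cells, against 8.90, 9.47 and 9.70 in GFP-minus cells. The arrays did not overlap, GFP-positive replicates 2 and 3 lay close together at a low value, and the level was 45.3-fold lower in GFP-positive cells (log2 difference -5.50, standard error 0.28, limma adjusted p = 0.00371). At such low values a fold depends on the background correction.
The call of *ptprc* was kept without any single array. In a fit with the replicate number as a block, the calls of *ptprc* (limma adjusted p = 0.0518), *lcp1* (0.0744) and *coro1a* (0.0813) were lost. When single arrays were left out, the call of *lcp1* was lost without GFP-positive replicate 2 (limma adjusted p = 0.0582) or GFP-minus replicate 2 (0.0515). That of *coro1a* was lost without GFP-positive replicate 3 (0.0628) or GFP-minus replicate 2 (0.0515). In these sorted bulk samples, fewer leukocytes and less RNA per leukocyte cannot be told apart.

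The myeloid transcription factor gene *spi1b* was lower in GFP-positive cells on both of its probe sets. The brighter set gave 4.56, 3.70 and 4.58 in GFP-positive cells, against 8.32, 9.28 and 8.62 in GFP-minus cells. This was a 22.0-fold lower level (log2 difference -4.46, standard error 0.38, limma adjusted p = 0.00976). The dimmer set read 3.23, 3.27 and 3.32 in GFP-positive cells, against 7.84, 8.31 and 8.02 in GFP-minus cells. Replicates were closer together on this set than on the brighter one. Its 27.5-fold lower level had a standard error of 0.13 around the log2 difference of -4.78 (limma adjusted p = 0.00188). The GFP-positive values of the dimmer set were near background, where values lie close together and a fold depends on the background correction. Those of the brighter set, 3.70 to 4.58, were low too, so its fold also depends on that step. Both *spi1b* sets kept their call without any single array, with differences between -4.17 and -4.89.

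The macrophage receptor gene *csf1ra* was dim and was not called. It lay at 2.55, 2.45 and 2.45 in GFP-positive cells, against 4.71, 5.08 and 3.38 in GFP-minus cells. The groups did not overlap, but GFP-minus replicate 3 lay well below the other two. The difference was -1.91 (95% confidence interval -3.20 to -0.61, unadjusted p = 0.0137, limma adjusted p = 0.109), with the GFP-positive arrays near the lowest value. Without GFP-minus replicate 3 it was -2.41 and passed the test (limma adjusted p = 0.0189). It also passed after median centring (-1.68, limma adjusted p = 0.0357) and when arrays were scaled to the hybridization controls (-2.64, limma adjusted p = 0.000300).

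Of the granulocyte genes, *lyz* was called lower in GFP-positive cells, whereas no *mpx* probe set passed the test. Lysozyme *lyz* had values of 7.78, 6.75 and 6.72 in GFP-positive cells, against 12.89, 12.04 and 11.67 in GFP-minus cells. It was 34.7-fold lower in GFP-positive cells (log2 difference -5.12, standard error 0.47, limma adjusted p = 0.0111), and in both populations replicate 1 was the highest. Its call was lost without GFP-positive replicate 2 (limma adjusted p = 0.0582), GFP-positive replicate 3 (0.0604) or GFP-minus replicate 2 (0.0519).
Myeloperoxidase *mpx* has 4 probe sets, which disagree. The set with the highest mean gave 4.87, 3.46 and 3.64 in GFP-positive cells, against 3.68, 3.65 and 3.55 in GFP-minus cells. It overlapped between the populations (log2 difference 0.36, 95% confidence interval -0.75 to 1.47, limma adjusted p = 0.664), and the positive sign rested on GFP-positive replicate 1, without which the difference was -0.078. It also turned under the hybridization-control scaling (-0.38). A second set gave 2.61, 2.43 and 2.36 in GFP-positive cells, against 3.43, 5.73 and 4.89 in GFP-minus cells. All its GFP-positive arrays lay below all its GFP-minus arrays, which in turn spread over more than 2 log2 units (log2 difference -2.21, 95% confidence interval -3.91 to -0.52, unadjusted p = 0.0208, limma adjusted p = 0.139). Without GFP-minus replicate 1 it was -2.84 and was called (limma adjusted p = 0.0317), as it was after median centring (-1.99, limma adjusted p = 0.0397) and when arrays were scaled to the hybridization controls (-2.95, limma adjusted p = 0.00233). The remaining *mpx* sets stayed at the lowest value of 2.17, apart from 2.19 on one of them in GFP-positive replicate 2.

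Granulocyte and macrophage members were also set against each other within each array. The mean log2 value of *mpx* and *lyz*, each by its probe set with the highest mean, minus that of *csf1ra*, was 3.77, 2.66 and 2.73 in GFP-positive cells, against 3.58, 2.77 and 4.23 in GFP-minus cells. The values overlapped and the difference of -0.47 was smaller than the spread within either population (SD 0.62 in GFP-positive and 0.73 in GFP-minus cells). With all probe sets of the members it was -0.88, larger than both SDs (0.35 in GFP-positive and 0.71 in GFP-minus cells), with values that overlapped. The ratio thus depended on the *mpx* set: it became -1.76, without overlap, when *mpx* was taken from the set that differed, a choice made after the data were seen. A comparison with *lyz* alone was likewise added after the data were seen. The *lyz* value minus that of *csf1ra* was 5.23, 4.30 and 4.28 in GFP-positive cells, against 8.18, 6.97 and 8.29 in GFP-minus cells. These did not overlap, and the difference was -3.21 (SD 0.54 in GFP-positive and 0.74 in GFP-minus cells). It restates the *lyz* difference of -5.12 against the *csf1ra* difference of -1.91. Since *csf1ra*, and *mpx* on the set that differed, lay near background in GFP-positive cells, the ratios are bounded by the background step there. No p is given for them. The *mpx* set with the highest mean overlapped between the populations, at 3.46 to 4.87 in GFP-positive and 3.55 to 3.68 in GFP-minus cells.

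**Figure D2:**
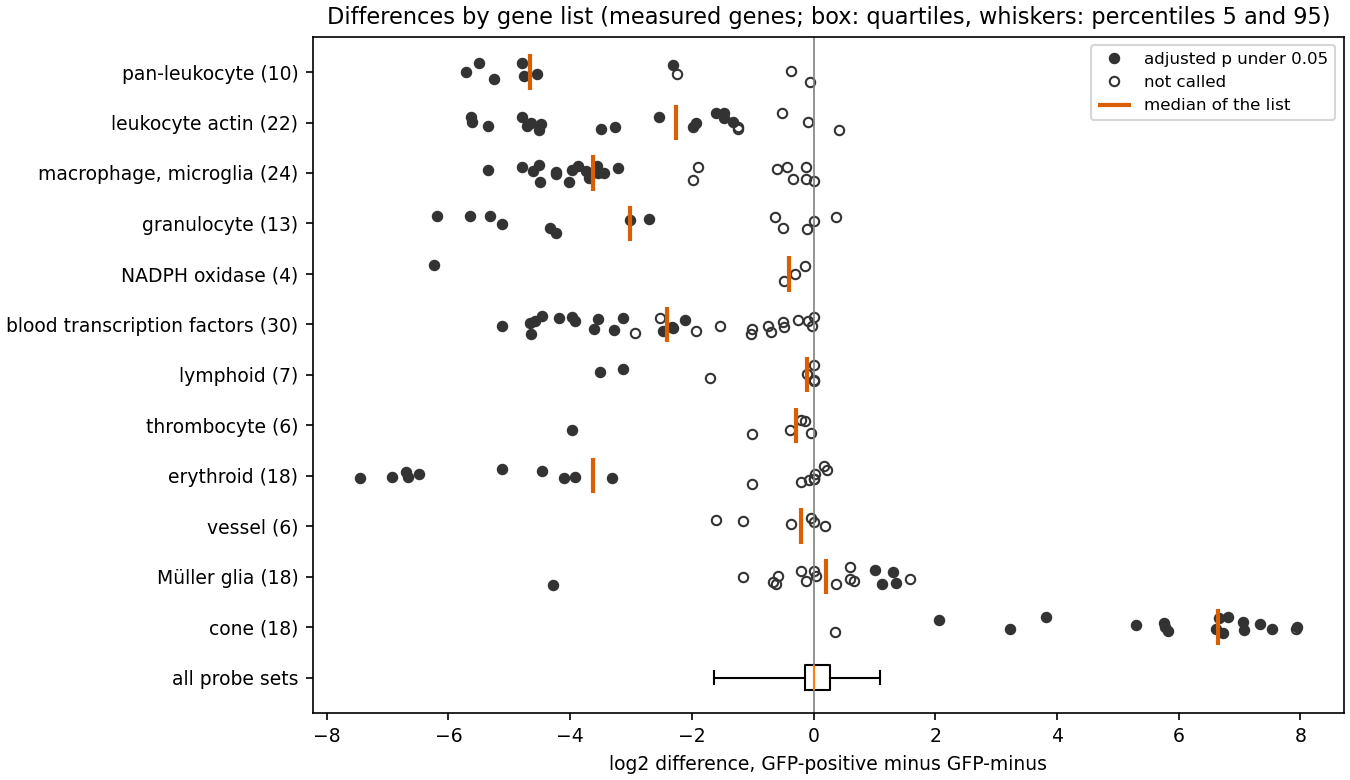
Log2 difference, GFP-positive minus GFP-minus, of every measured gene of 12 marker and pathway lists (number of genes in brackets), filled where the limma adjusted p is under 0.05, with the median of each list in orange and all probe sets as a box below. The pan-leukocyte, actin, macrophage, granulocyte, transcription factor and erythroid lists reach far to the left, and the cone list to the right.

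The other genes of these pathways were described by lists, each gene by its probe set with the highest mean. The lists share some genes. Over all probe sets, the median difference was 0.0106 and 4.69% were called lower. That share is not selected for brightness as the lists are, and it includes dim and unnamed probe sets. In a fit of only the probe sets above 5 on at least 3 arrays, 12.6% of 7667 were called lower. That fit had its own adjustment, whereas the list counts are from the main fit. A probe set could also pass its filter through a single population. In none of the leukocyte, myeloid, oxidase and transcription factor lists was a gene higher in limma, also at an unadjusted p under 0.05, where 9 pan-leukocyte, 19 actin, 18 macrophage, 9 granulocyte, 1 oxidase and 22 transcription factor genes were lower, beside 10.4% of all probe sets. In leukocyte signalling and adhesion, 7 of 10 measured genes were called lower and none higher (median difference -4.66). Besides *ptprc*, the largest differences were those of *ptpn6*, the phosphatase SHP-1 that restrains immune receptors (52.2-fold lower, limma adjusted p = 0.0176), the chemokine receptor gene *cxcr4b* (37.9-fold lower, limma adjusted p = 0.0138) and *laptm5*, a lysosomal membrane protein of leukocytes (27.8-fold lower, limma adjusted p = 0.0138). The GFP-positive values of *ptpn6*, 3.43 to 5.30, were low, so its fold depends on the background correction. The kinase gene *syk* had a difference of -0.37 at values near background (limma adjusted p = 0.234). The 7 became 3 without GFP-positive replicate 2, 4 without GFP-positive replicate 3 and 2 without GFP-minus replicate 2 or 3. With the replicate number as a block they became 1. The calls of *cxcr4b* and *laptm5* were lost without GFP-positive replicate 2 (0.0642 and 0.0695), GFP-minus replicate 2 (0.0619 and 0.0622) or GFP-minus replicate 3 (0.0543 and 0.0539), and that of *cxcr4b* without GFP-positive replicate 3 as well (0.0650). The call of *ptpn6* was lost without GFP-positive replicate 3 (0.0774), GFP-minus replicate 2 (0.0643) or GFP-minus replicate 3 (0.0664), all limma adjusted p.
Of 22 genes of actin regulation in leukocytes, 17 were lower and none was higher (median difference -2.26). Apart from the members *lcp1* and *coro1a*, the leading genes were *capgb*, which caps actin filaments (40.9-fold lower, limma adjusted p = 0.00357), and *arpc1b*, a subunit of the actin-branching Arp2/3 complex (27.6-fold lower, limma adjusted p = 0.00905). The gene *actr3*, a core subunit of the same complex found in most cells, was 2.76-fold lower (limma adjusted p = 0.00267). Actin genes that every cell uses were among the 17, so the list does not hold leukocyte genes alone. The GFP-positive values of *capgb*, 2.89 to 3.33, were near background. The call of *arpc1b* was lost without GFP-positive replicate 2 (0.0510) or 3 (0.0530), and the 17 became 10 or 9 without the same arrays. With the replicate number as a block they became 6.

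Most macrophage and microglia genes measured were lower in GFP-positive cells. Of 24 genes, with *csf1ra* among those not called, 16 were lower, all of them at least 4-fold, and none was higher (median difference -3.62). The amino acid transporter gene *slc7a7*, required for microglia in zebrafish, gave 4.24, 4.14 and 4.21 in GFP-positive cells, against 7.97, 10.50 and 10.17 in GFP-minus cells, a 40.8-fold lower level (limma adjusted p = 0.0269). Its GFP-positive values were low, so this fold depends on the background correction. The complement gene *c1qc*, expressed by microglia, gave 6.51, 6.27 and 5.52 in GFP-positive cells, against 10.26, 11.16 and 10.73 in GFP-minus cells, a 24.5-fold lower level (limma adjusted p = 0.00835). The inflammation regulator *tnfaip8l2a* was 22.7-fold lower (limma adjusted p = 0.00769), with GFP-positive values of 2.32 to 2.85 near the lowest value. The apolipoprotein gene *apoeb*, a microglia marker that Müller glia also express, differed by -0.13 (limma adjusted p = 0.907), and the mannose receptor gene *mrc1a* lay within 0.05 of the lowest value on all arrays.
The 16 became 4, 3, 5 or 9 without GFP-positive replicate 2, GFP-positive replicate 3, GFP-minus replicate 2 or GFP-minus replicate 3. The call of *c1qc* was kept without any single array. That of *tnfaip8l2a* reached an adjusted p of 0.0500, just past the threshold, without GFP-positive replicate 3, and that of *slc7a7* was kept without GFP-minus replicate 1 and lost without any other array (limma adjusted p between 0.0808 and 0.111).

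Of 13 measured granulocyte genes, 8 were lower in GFP-positive cells, *lyz* included, with none higher and a median difference of -3.01. The collagenase gene *mmp13a* was 73.1-fold lower (limma adjusted p = 0.00805), the leukotriene pathway gene *alox5ap* 50.1-fold (0.00478) and the granule proteoglycan gene *srgn* 39.8-fold lower (0.00744). Their GFP-positive values, between 2.69 and 3.80, were near background. The carboxypeptidase gene *cpa5*, a mast cell gene in zebrafish, was 20.1-fold lower and *mmp9*, a gelatinase gene of granulocytes and other cells, 18.7-fold lower (limma adjusted p = 0.00390 and 0.0142). The granulocyte transcription factor gene *cebp1* differed by -0.50 (limma adjusted p = 0.318). The 8 became 4 without GFP-positive replicate 3, the array without which *mmp13a* (0.0516) and *mmp9* (0.0726) lost their calls. The call of *mmp9* was also lost without GFP-minus replicate 2 (0.0551) or 3 (0.0520). With the replicate number as a block the 8 became 5. Among 4 genes of the phagocyte NADPH oxidase, which makes the oxidative burst of both cell types, *ncf1* was 75.7-fold lower (limma adjusted p = 0.00702), with 3.23, 3.13 and 3.36 in GFP-positive cells, against 8.62, 10.31 and 9.52 in GFP-minus cells. The GFP-positive values of *ncf1* were near background. The other 3 oxidase genes did not pass the test.

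Transcription factors direct the blood lineages, and *spi1b* is one of them. On a list of transcription factors known from blood cells, 15 of 30 measured genes were lower and none was higher (median difference -2.40). The list was not restricted to factors found only in blood cells. The largest differences were those of *klf1*, an erythroid factor (34.9-fold lower, limma adjusted p = 0.00976), the myeloid factor *cebpa* (25.2-fold, 0.0181), the interferon regulatory factor *irf5* (25.1-fold, 0.0173, with GFP-positive values of 2.21 to 2.54 near the lowest value) and *cebpb* (23.8-fold, 0.00574). The GFP-positive values of *klf1*, 3.07 to 3.48, were near background as well. The stem cell factors *runx1* and *myb* had differences of -0.26 and -0.02 at low values and were not called. The 15 became 7, 5 or 3 without GFP-positive replicate 1, 2 or 3, 6 or 8 without GFP-minus replicate 2 or 3, and 26 under the hybridization-control scaling. With the replicate number as a block they became 2. The call of *cebpb* was kept without any single array, that of *klf1* was lost without GFP-positive replicate 3 (0.0570), that of *irf5* without any GFP-positive array or GFP-minus replicate 3 (0.0629 to 0.0810), and that of *cebpa* without any array but GFP-minus replicate 1 (0.0571 to 0.0753).

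**Figure D3:**
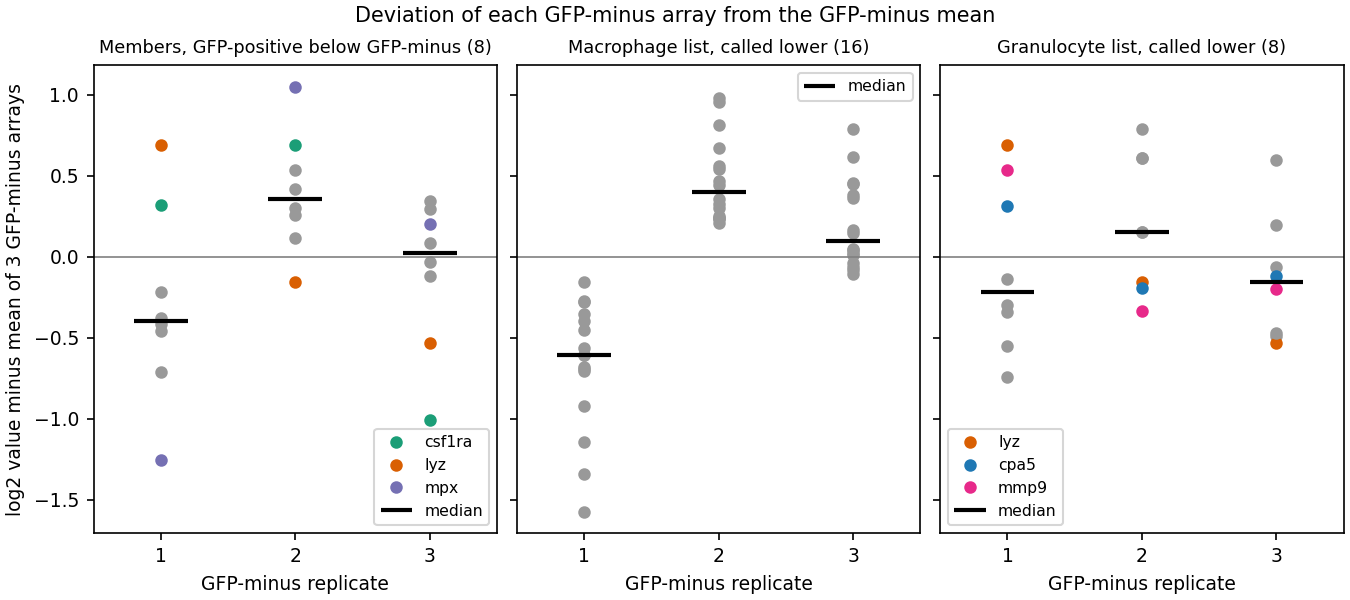
Deviation of each GFP-minus array (horizontal axis: replicate number) from the mean of the 3 GFP-minus arrays on the log2 scale, for the 8 member probe sets without overlap, the 16 called macrophage genes and the 8 called granulocyte genes; black bars are medians. The 16 called macrophage genes are lowest in replicate 1. Of the 8 called granulocyte genes, 3 are lowest there as well, and 3 (*lyz*, *mmp9* and *cpa5*) are highest there.

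The GFP-minus replicates differed in which myeloid genes were high. All 16 called macrophage genes had their lowest GFP-minus value in replicate 1, against 60.2% of the 727 probe sets called lower. In replicate 2, 13 of the 16 were highest, as were 396 of those 727 probe sets. The median deviation of the 16 macrophage genes from the GFP-minus mean was -0.61, 0.40 and 0.10 in replicates 1 to 3. For all probe sets called lower it was -0.21, 0.18 and 0.02. Of the 727 probe sets called lower, 133 were highest in replicate 1. Of the 8 called granulocyte genes, 3 were lowest and 3 were highest there. The 3 highest there were *lyz* (12.89 in replicate 1, against 12.04 and 11.67 in replicates 2 and 3), *mmp9* (10.59, against 9.72 and 9.86) and *cpa5* (7.69, against 7.19 and 7.26). The 3 lowest there included *alox5ap* (8.39, against 9.55 and 8.87) and *srgn* (7.46, against 8.36 and 8.80). Among the members without overlap, *lcp1*, *coro1a*, *ptprc*, both *spi1b* sets and the *mpx* set that differed also had their lowest GFP-minus value in replicate 1. The other members without overlap, *csf1ra* and *lyz*, were lowest in replicate 3. The low replicate 1 was not particular to macrophage genes. In replicate 1, 8 of 10 called erythroid genes, 12 of 15 transcription factor genes and both lymphoid genes also had their lowest GFP-minus value. So did 5 of 7 called pan-leukocyte genes and 10 of 17 called actin genes, the latter near the share over all probe sets called lower. The median deviation of the erythroid genes there was -0.75. These lists overlap, so the counts are not independent. The transcription factor list shares *mafbb* with the macrophage list, *klf1* and *gata1a* with the erythroid list and *gata3* with the lymphoid list. The pan-leukocyte list shares *laptm5* with the macrophage list. The replicates are single arrays and the pattern is a description without a test.

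Of other blood lineages, erythroid genes were often lower in GFP-positive cells as well, but few lymphoid and thrombocyte genes were. The share called lower over all probe sets was 4.69%. Of 18 erythroid genes, 10 were called lower and none higher, with summed linear levels of 6236 to 8845 in GFP-positive and 49241 to 65025 in GFP-minus samples. The lymphoid list had 2 of 7 lower, the T-cell receptor gene *trac* (limma adjusted p = 0.0305) and the factor *gata3* (0.0105). No fold is given for them, since their GFP-positive values, 2.17 to 2.38 for *trac* and 2.37 to 2.47 for *gata3*, were at or near background, against 5.13 to 6.90 and 4.95 to 5.93 in GFP-minus cells. The list had sums of 40.2 to 41.4 in GFP-positive and 99.2 to 223 in GFP-minus samples, and with *rag1* and *rag2*, which recombine antigen receptor genes, at the lowest value on all arrays. The call of *trac* was lost without any GFP-positive array or GFP-minus replicate 2 (0.0910 to 0.118) and that of *gata3* without GFP-positive replicate 2 (0.0585) or 3 (0.0596). Of 6 thrombocyte genes, *f13a1b*, a coagulation factor gene also known from macrophages, was 15.6-fold lower (limma adjusted p = 0.0146), while *itga2b* and *gp1bb*, which define thrombocytes, reached no more than 2.82 and 2.34. The list sums were 65.6 to 135 in GFP-positive and 975 to 1407 in GFP-minus samples. The *f13a1b* probe set governed this sum in both populations. The other 5 genes, none of them called, summed to 23.9 to 26.2 in GFP-positive and 27.2 to 42.3 in GFP-minus samples. The call of *f13a1b* was lost without GFP-positive replicate 2 (0.0668), GFP-minus replicate 2 (0.0668) or GFP-minus replicate 3 (0.0502). The 6 vessel genes differed by -1.59 to 0.19 without passing the test, also at an unadjusted p under 0.05 in limma (sums of 63.5 to 70.5 in GFP-positive and 84.5 to 287 in GFP-minus samples), and the Müller glia list had 4 of 18 higher and 1 lower (24438 to 36013 in GFP-positive and 20080 to 30336 in GFP-minus samples). The part of these cell types in the leukocyte differences was not tested.

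The genes whose values over the 6 arrays ran most like the members were sought by the root mean square difference of profiles centred on their own mean. Nearest to the mean profile of *lcp1*, *coro1a* and *ptprc* were *nrros*, a gene of microglia in mice, *capgb*, *si:ch211-250g4.3*, *zgc:64051*, *cxcr4b* and *si:ch73-55i23.1*, at distances of 0.201 to 0.287 log2 units. The first of them, *nrros*, had 4.27, 3.71 and 3.46 in GFP-positive cells, against 8.77, 9.76 and 9.32 in GFP-minus cells. Nearest to *csf1ra*, at 0.228 to 0.350, were *ets1*, *myofl*, *tp63*, one *gapdh* probe set, *anp32b* and *apol1*. Nearest to the *mpx* set with the highest mean, at 0.0738 to 0.0809, were *apela*, *col8a1a*, *and2*, *ntn1b*, *dlx2a* and *elovl5*, which lay between 2.17 and 2.58 on the other 5 arrays and stood out in GFP-positive replicate 1. These likenesses rest on 2 populations of 3 arrays and are descriptions.

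**Figure D4:**
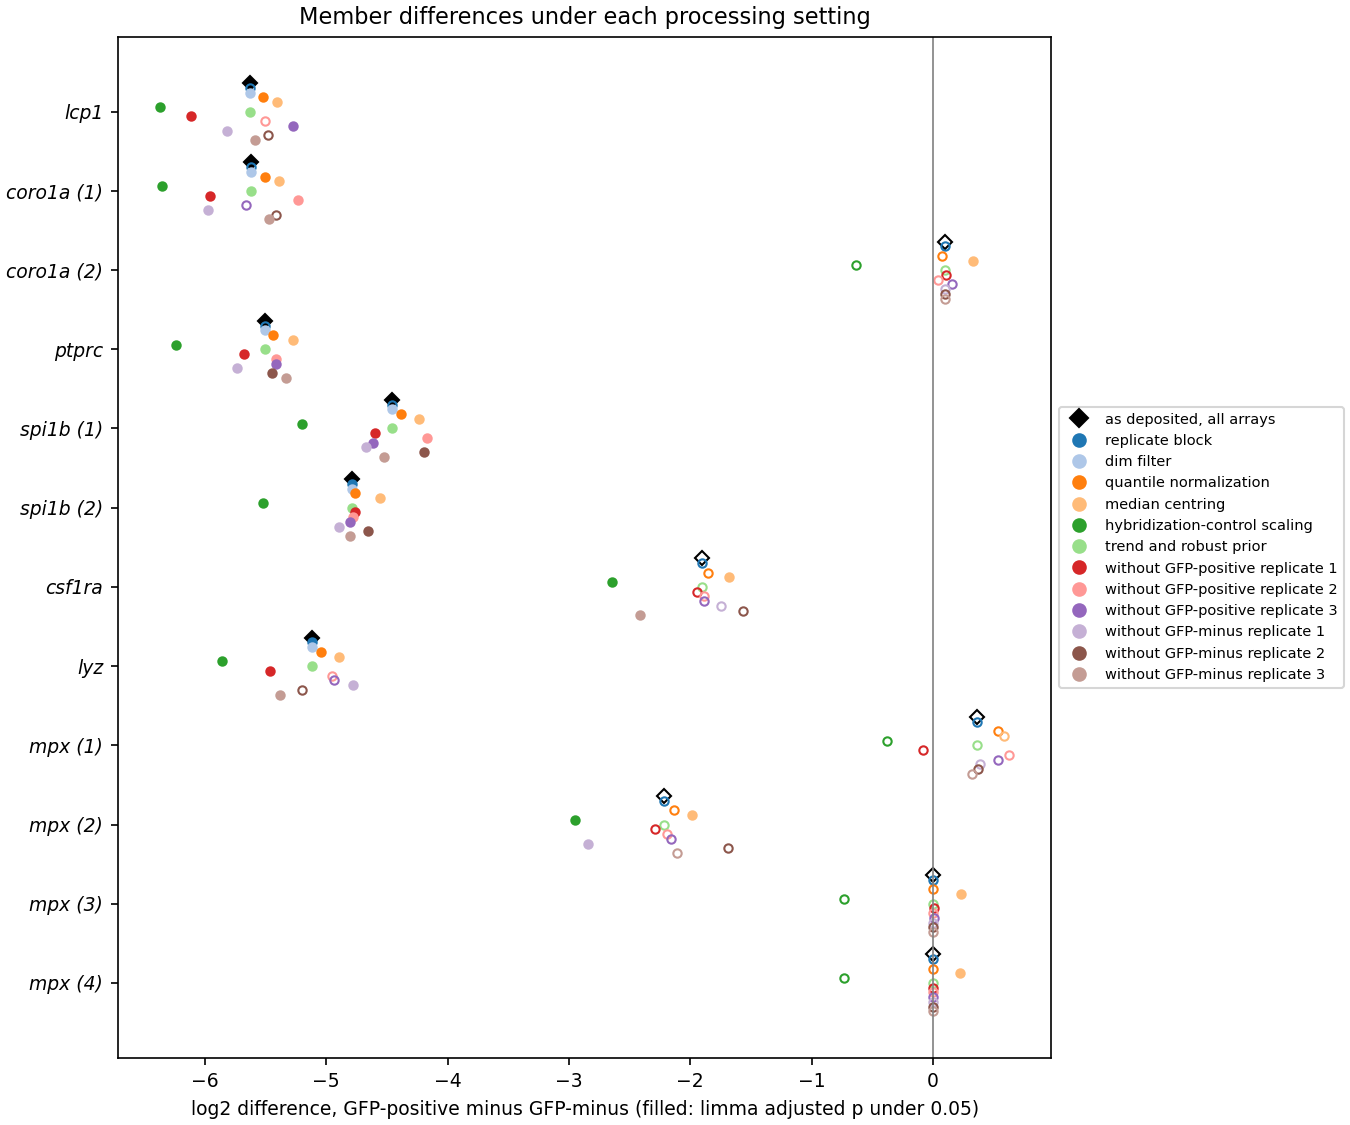
Log2 difference, GFP-positive minus GFP-minus (horizontal axis), of each member probe set as deposited (diamond) and under up to 12 other settings (circles), filled where the limma adjusted p is under 0.05. The called members keep large negative differences throughout. The calls of *lcp1*, *coro1a* and *lyz* are lost without some single arrays. With the replicate number as a block, those of *lcp1*, *coro1a*, *ptprc* and the brighter *spi1b* set are lost. Calls of *csf1ra* and one *mpx* set are made without 1 array or under a scaling.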

How the data were processed

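The authors deposited log2 expression values of 15617 probe sets, made per the labels with GCRMA (version and settings not given in the sources used here) from biotin-labelled RNA after two-cycle amplification, with 1 array per sample. GCRMA corrects background by probe sequence, so dim probe sets collect at low constants and folds against them depend on this step. The values were used as deposited. After 115 Affymetrix controls had been left out, 15502 probe sets were tested, of which 10795 had 1 gene symbol, 135 several (not named) and 4572 none; 1 symbol was updated through its gene identifier. No genome build is named, so no coordinates are given.

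GFP-positive and GFP-minus samples were grouped by their labels and compared by the moderated linear model of limma 3.58.1 under R 4.3.3. Tests were two-sided, p-values were adjusted after Benjamini and Hochberg across the 15502 probe sets, and 0.05 was the threshold. The fit was also run on simulated arrays with known differences and independent normal noise. That simulation held no background constants and no deviations shared within an array, so it does not bear on these features of the data. The labels call the replicates biological but do not say whether equal numbers mean shared fish. The members and the 12 gene lists (364 symbols, 167 measured) were chosen with earlier results of these data known. Genes named were all members, the called genes that differed most in each list, up to 4, and the 6 nearest named probe sets to 3 profiles. Others, named to show exceptions or further genes of a list, were chosen after their values were seen. These were *syk*, *actr3*, *apoeb*, *mrc1a*, *cpa5*, *mmp9*, *cebp1*, *runx1*, *myb*, *rag1*, *rag2*, *itga2b* and *gp1bb*. Erythroid, glial and cone genes are given as counts and sums only, apart from *klf1*, *gata1a* and *apoeb*, which are also on other lists. Alternatives were a block on replicate number, a dim filter (above 5 on at least 3 arrays), quantile normalization, median centring, scaling to the hybridization controls, eBayes with a trend and robust prior, an adjusted p under 0.01 and leaving out each array. Figures were drawn with matplotlib 3.10.9.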

Additional observations from a re-analysis of the deposited data

How the results depend on the processing

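The 6 member calls and their direction held with quantile normalization, median centring, the hybridization-control scaling and the trend and robust prior. Under both scalings 8 members were called lower. With the dim filter the 6 were called too, but *ptprc* and both *spi1b* sets pass that filter only through their GFP-minus arrays. For these sets the filter is therefore no further support. With an adjusted p under 0.01, 3 members were called, and 4 macrophage, 5 granulocyte, 2 pan-leukocyte, 10 actin and 4 transcription factor genes were lower, with 201 lower and 50 higher over all probe sets. Over all probe sets, 814 were higher with the dim filter, 1102 lower and 6151 higher with median centring, and 3251 lower and 195 higher under the hybridization-control scaling, where 26 transcription factor genes were lower. Under that scaling the dimmer *coro1a* set turned to -0.63 and the brightest *mpx* set to -0.38; this *mpx* set ranged from -0.078 (without GFP-positive replicate 1) to 0.63 (without GFP-positive replicate 2) when single arrays were left out. Median centring called the dimmer *coro1a* set (0.33) and both *mpx* sets at the lowest value (0.23) higher, by its shift of 0.225. The log ratio of granulocyte to macrophage members was -1.76 with the *mpx* set that differed. Leaving out single arrays gave 3 to 7 called members, 3 to 14 macrophage, 4 to 7 granulocyte, 2 to 7 pan-leukocyte, 9 to 16 actin and 3 to 16 transcription factor genes, 214 to 740 lower and 103 to 323 higher probe sets, and a log ratio of -0.85 to -0.12. With 3 arrays against 3, and 2 against 3 when one is left out, calls near the threshold move easily.

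Same-numbered samples deviated together in replicate 1 (correlation of deviations 0.555), less in replicates 2 (0.0589) and 3 (0.266). Between unlike numbers the correlations ran from -0.443 to 0.357, and not every sample correlated best with its own number. Deviations from a mean of 3 arrays cannot decide whether equal numbers are pairs. The main fit did not pair them, and its calls depend on that choice. With the replicate number as a block, 2 members were called (*lyz* and the dimmer *spi1b* set), 1 macrophage, 5 granulocyte, 1 pan-leukocyte, 6 actin and 2 transcription factor genes were lower, and 256 probe sets were lower and 194 higher in all.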

Other observations

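Profiles of 3 further members were compared with all named probe sets, a choice made after the data were seen. Nearest to *lyz* was *hp*, which encodes the haemoglobin-binding protein haptoglobin, with 3.36, 3.20 and 3.02 in GFP-positive cells, against 8.23, 8.26 and 7.66 in GFP-minus cells, a 29.1-fold lower level (limma adjusted p = 0.00320). The GFP-positive values of *hp* were near background. The gene *hp* was followed by *si:ch211-214p16.1*, *gmfg*, *si:dkey-193p11.2*, *arhgdig* and *si:dkey-102g19.3*. Distances to *lyz* were 0.394 to 0.458 log2 units over the 6 arrays, farther than those of *spi1b* (0.291 to 0.324). The neighbours of the brighter *spi1b* set were *pfn1*, *plekhf1*, *ucp2*, *wasb*, *krt18b* and *mhc2daa*, the last an antigen presentation gene with an 18.3-fold lower level among GFP-positive cells (limma adjusted p = 0.0119, lost without GFP-positive replicate 3 at 0.0650 or GFP-minus replicate 2 at 0.0554). The *mpx* set that differed ran most like *slc3a2a*, *flvcr2b*, *nucb1*, *ctbs*, *tal1* and *ncalda*, at 0.130 to 0.217; none of these passed the test from all arrays in limma. Among them, *slc3a2a*, which encodes the partner chain of amino acid transporters such as that of *slc7a7*, had 6.98, 6.61 and 6.94 in GFP-positive cells, against 7.74, 9.95 and 9.15 in GFP-minus cells (limma adjusted p = 0.146).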
